A study of Mus musculus with 3 samples.

Results

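The 3 genes described here encode one chemokine pathway of the embryonic brain: the ligand Cxcl12, its signalling receptor Cxcr4 and its second receptor Ackr3, also called Cxcr7. They were taken by Ensembl ID from the 27040 genes that all 3 libraries of the series list. Cxcl12 is secreted by the meninges, where it binds matrix proteoglycans. Cxcr4 couples to inhibitory G proteins and steers migrating cells, including the Cajal-Retzius neurons that spread under the meninges from their birthplaces at the borders of the cortex. Ackr3 does not couple to G proteins in the usual way: it signals through arrestins, takes up Cxcl12 and so shapes how much of it reaches Cxcr4.

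The series asked how Gmnc, a geminin-family coregulator best known from multiciliated cells, acts in the fate of Cajal-Retzius neurons of the cortical hem, the dorsal midline border of the mouse cortex. One single-cell library (10x Genomics 3′ chemistry) came from 4 Gmnc-/- embryos at E12.5. The 2 wild-type (WT) libraries came from 1 suspension, which mixed 4 E11.5 PGKCre;Rosa26YFP embryos with 4 E12.5 Wnt3aCre;Rosa26tdTomato embryos. All embryos were C57BL/6J, and the dorsal pallial midline was dissected from both hemispheres. PGKCre acts in all cells, whereas Wnt3aCre acts in the hem lineage, so in the WT mixture YFP can mark any E11.5 cell and tdTomato mainly E12.5 cells of hem descent. Each genotype is thus 1 suspension of pooled embryos, so no test was possible. Genotype cannot be told apart from age, dissection, the gene annotation used in counting or other processing. Every interval below is a 95% interval that covers counting error only.

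The libraries held 259403297 UMIs (counted molecules) in 20256 barcodes for Gmnc-/-, 148073906 in 12426 for WT library 1 and 139978761 in 10399 for WT library 2. After filters on quality and doublets, 12884, 8527 and 7479 cells were used, with medians of 8644, 11643 and 12822 UMIs. The WT libraries shared 1914 barcodes, and in 98.6% of them one copy had more than 10 times the UMIs of the other. Of these shared barcodes 30 were used in both libraries. Leaving out every shared barcode changed the Gmnc-/- over WT ratio of Ackr3 in Cajal-Retzius-like neurons to 0.153 from 0.154 with them, that of Cxcr4 to 0.700 from 0.705, and that of Cxcl12 in mesenchyme-like cells to 0.905 from 0.872. Gmnc itself was read at 228 CPM (UMIs of the gene per 1000000 UMIs of the class) in Gmnc-/- Cajal-Retzius-like neurons, 220 in WT library 1 and 203 in WT library 2, so 3′ tags of the transcript did not check the genotype label. Trp73, which these neurons normally express, gave 1 UMI in the Gmnc-/- class against 1576 and 1654 in the WT libraries.

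Cells were grouped without the 3 genes or their pathway. Cajal-Retzius-like neurons numbered 928 in the Gmnc-/- library, 604 in WT library 1 and 550 in WT library 2. All 6 Cajal-Retzius markers were detected in this class in each library, with summed levels of 1711 CPM in Gmnc-/- and 1119 and 1105 CPM in the WT libraries. Calb2 (426 CPM in Gmnc-/- against 69.8 and 44.3 CPM) and Nhlh2 (659 against 375 and 393 CPM) made up the higher sum, while Reln (127 against 162 and 158 CPM) and Ebf3 (122 against 172 and 170 CPM) were lower. Pallial-like neurons also held all 6, at 1304 CPM in Gmnc-/- and 1506 and 1481 CPM in WT. This sum thus did not set the WT class apart from them. Scores were the mean log2 fold of a marker set over the other neuron sub-clusters. The class name required a higher Cajal-Retzius than pallial score. Sub-clusters 7, 8 and 11, mostly WT cells, had Cajal-Retzius scores of -0.49, -0.45 and -0.47 and pallial scores of -1.78, -1.51 and -0.48. Mesenchyme-like cells, which held all 9 mesenchyme and meninges markers in each library, numbered 169, 69 and 66. Hem progenitor-like cells numbered 1932, 1710 and 1498, and pallial progenitor-like cells, from the neighbouring cortex, 4838, 3241 and 2773. Choroid plexus-like, intermediate progenitor-like, pallial-like neuron and erythroid-like cells made up the other classes compared.

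In the GRCm38 assembly (mm10), Cxcl12 lies on the plus strand of chromosome 6 from 117168535 to 117181367, Cxcr4 on the minus strand of chromosome 1 from 128588199 to 128592293, and Ackr3 on the plus strand of chromosome 1 from 90203980 to 90216751. GENCODE places no other gene over any of them. Its 3 protein-coding Cxcl12 transcripts end at 3 different positions, so the counts pool isoforms. The 250 bases before the start site are shown 5′ to 3′ on the gene's strand, from RefSeq's GRCm38.p6 annotation, because the 2 receptors differed in the neurons while sharing a chromosome and a ligand. Capitals mark TATAAA, searched on both strands.
Cxcl12 promoter, chr6:117168285-117168534, plus strand: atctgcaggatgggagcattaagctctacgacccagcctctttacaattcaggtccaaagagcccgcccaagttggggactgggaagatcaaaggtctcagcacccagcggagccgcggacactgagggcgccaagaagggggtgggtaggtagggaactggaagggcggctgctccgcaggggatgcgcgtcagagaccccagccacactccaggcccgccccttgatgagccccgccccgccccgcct
Cxcr4 promoter, chr1:128592300-128592549, minus strand: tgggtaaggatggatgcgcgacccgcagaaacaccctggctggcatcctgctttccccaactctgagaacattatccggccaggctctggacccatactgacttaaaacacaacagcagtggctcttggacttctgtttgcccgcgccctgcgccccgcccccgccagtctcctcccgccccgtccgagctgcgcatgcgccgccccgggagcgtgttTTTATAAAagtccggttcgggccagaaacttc
Ackr3 promoter, chr1:90203730-90203979, plus strand: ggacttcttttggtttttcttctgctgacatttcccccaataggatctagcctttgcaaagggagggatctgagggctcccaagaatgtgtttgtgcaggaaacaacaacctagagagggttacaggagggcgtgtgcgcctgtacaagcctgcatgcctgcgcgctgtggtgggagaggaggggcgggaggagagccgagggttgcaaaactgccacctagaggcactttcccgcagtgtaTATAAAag
Both receptor windows held TATAAA, which 12.4% of the 32851 windows of this length hold, and the Cxcl12 window did not. In Cxcr4 the 2 matches overlap on opposite strands and begin 32 and 30 bases before the start, and in Ackr3 the match begins 8 bases before it. None of the 3 windows held CANNTG, the E-box bound by basic helix-loop-helix factors, which 66.2% of windows hold. GC content was 64.4% for Cxcl12, 61.2% for Cxcr4 and 54% for Ackr3. These matches describe letters in a window, not sites in use.

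**Figure D1:**
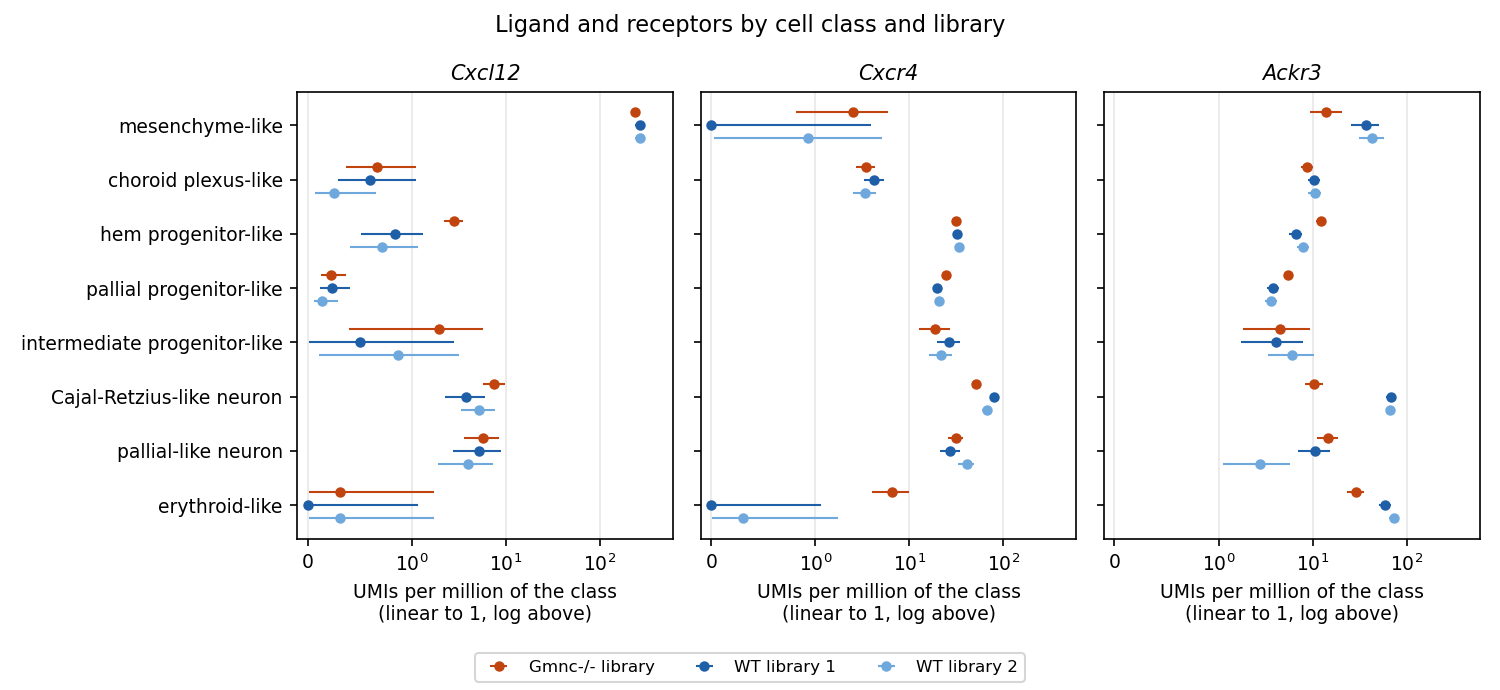
Level of each gene (x axis, CPM, linear to 1 and log above) in 8 cell classes (rows), with 1 point per library and 95% Poisson intervals. Cxcl12 was highest in mesenchyme-like cells in all 3 libraries, and Ackr3 in Cajal-Retzius-like neurons was 10.4 in Gmnc-/- against 67.9 and 66.8 in the WT libraries.

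Cxcl12 was a mesenchyme gene in both genotypes. Mesenchyme-like cells held 233 CPM (interval 212 to 255) in Gmnc-/-, 268 CPM (236 to 303) in WT library 1 and 267 CPM (237 to 300) in WT library 2. These cells were 1.31%, 0.809% and 0.882% of the cells used, yet they held 67.6%, 74.1% and 79.6% of all Cxcl12 UMIs. A UMI of the ligand was found in 77.5% of them in Gmnc-/- (131 of 169), in 81.2% in WT library 1 (56 of 69) and in 87.9% in WT library 2 (58 of 66). The Gmnc-/- over WT ratio was 0.872 (0.769 to 0.989). Its interval included 1 against WT library 1 alone (0.746 to 1.02), against WT library 2 alone (0.752 to 1.01) and with scaling by the trimmed mean of M values (0.801 to 1.03), so a lower level in Gmnc-/- was not resolved.

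Among the 4 sub-clusters of mesenchyme-like cells, Cxcl12 ranged from 159 to 286 CPM in Gmnc-/-, from 167 to 380 CPM in WT library 1 and from 205 to 297 CPM in WT library 2, so none lacked it. The ratio was 0.941, 1.01 and 0.963 in sub-clusters 0, 1 and 3, and 0.687 in sub-cluster 4. The 13 endothelial-like cells held 10 Cxcl12 UMIs between them, too few for a comparison. Sub-clusters 5 and 6 of the non-neural cells, both macrophage-like, held no UMI of Cxcl12 or Ackr3 in any library. The third macrophage-like group, sub-cluster 2, held 1 Cxcl12 UMI in Gmnc-/- against 5 and 0 in WT, and 5 Ackr3 UMIs against 1 and 0. Collagen genes followed the ligand most closely. Over 26 WT clusters and 8937 genes, the Pearson correlation of log2(CPM + 1) with Cxcl12 was highest for Col3a1 (0.875), Col1a1 (0.875) and Bgn (0.853), a fibrillar collagen pair and a small matrix proteoglycan. The clusters share libraries and depth, so these correlations are descriptions.

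Outside the mesenchyme the ligand was low, but it was not at one common level. In hem progenitor-like cells, the midline cells next to the choroid plexus, Cxcl12 had 2.77 CPM (2.17 to 3.47) in Gmnc-/-, 0.840 CPM (0.506 to 1.31) in WT library 1 and 0.713 CPM (0.408 to 1.16) in WT library 2, a ratio of 3.56 (2.35 to 5.49). A UMI was found in 73 of 1932 hem progenitor-like cells in Gmnc-/- (3.78%), in 19 of 1710 in WT library 1 (1.11%) and in 16 of 1498 in WT library 2 (1.07%), at median depths of 8553, 10887 and 12308 UMIs. Pallial progenitor-like cells gave the background: 0.331%, 0.370% and 0.252% of them had a UMI, with levels of 0.224, 0.231 and 0.139 CPM at medians of 10205, 13600 and 15159 UMIs. The hem cells lay above this background in all 3 libraries, and most clearly in Gmnc-/-.

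The Col3a1 UMIs of hem progenitor-like cells, at the mesenchyme's ratio of the 2 genes, correspond to 0.236 CPM of Cxcl12 in Gmnc-/- against 0.0683 and 0.0690 CPM in the WT libraries. The part of free RNA in the hem level was not tested beyond this. In the Gmnc-/- hem cells with a Cxcl12 UMI, Col3a1 was at 0.521 CPM and the hem gene Wnt3a at 61.4 CPM, against 1.65 and 58.6 CPM in those without one. No such cell held more than 2 Cxcl12 UMIs. Their median depth was 15335 UMIs in Gmnc-/- against 8413 UMIs in the cells without one, and after thinning to 2000 UMIs per cell only 7 Gmnc-/-, 4 and 2 WT cells kept a UMI, a ratio of 1.98 (0.558 to 6.99). At this low level Cxcl12 fell short of the 50 UMIs and 20 CPM on the higher side that defined a well-measured gene. Mesenchyme and meninges markers summed to 41.1 CPM in Gmnc-/- hem cells and to 24.9 and 25.1 CPM in the WT libraries, with 8, 9 and 8 of 9 detected.

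Choroid plexus-like cells, the other midline class, held 0.664 CPM of Cxcl12 in Gmnc-/-, 0.598 in WT library 1 and 0.254 in WT library 2, and the ratio of 1.56 had an interval of 0.680 to 3.48. A genotype difference was not detectable at this depth. Cluster 15, part of this class, held no Gmnc-/- cell but 306 and 290 WT cells. Neurons held a little more of the ligand. Cajal-Retzius-like neurons had 7.45 CPM (5.63 to 9.67) in Gmnc-/-, 3.78 CPM (2.24 to 5.98) in WT library 1 and 5.15 CPM (3.34 to 7.61) in WT library 2, and pallial-like neurons had 5.67, 5.11 and 3.95 CPM. The collagen ratio corresponds to 0.200 CPM in Gmnc-/- Cajal-Retzius-like neurons and to 0.0216 and 0.365 CPM in the WT ones. The Gmnc-/- over WT ratio was 1.67 (1.10 to 2.54), and against the WT cells with only tdTomato UMIs it was 1.16 (0.567 to 2.66).

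The receptors divided the tissue differently. In WT, among the named classes compared, Cxcr4 was highest in Cajal-Retzius-like neurons (mean of the libraries 73.2 CPM). Neurons left unnamed had 47.2 and 64.2 CPM in the WT libraries. Of the named classes, pallial-like neurons (33.9 CPM) and hem progenitor-like cells (33.3 CPM) came next, with overlapping intervals. Intermediate progenitor-like cells had 23.9 CPM, with intervals that overlapped those of the hem cells and of the pallial progenitor-like cells (20.4 CPM). Choroid plexus-like cells had 3.81 CPM, and mesenchyme-like and erythroid-like cells had 1 Cxcr4 UMI each in the 2 WT libraries together. Macrophage-like cells held 2 Cxcr4 UMIs in each WT library (8.61 and 4.13 CPM). Cxcr4 was thus highest in neurons and progenitors and nearly undetected in the mesenchyme-like cells that held most of its ligand. The genes most like it over the WT clusters were Celsr2 (0.913), an adhesion G protein-coupled cadherin, Pou3f3 (0.909), a POU-domain transcription factor of the developing cortex, and Ier5 (0.890), an immediate early response gene.

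Ackr3 had 2 high named classes in WT: Cajal-Retzius-like neurons at 67.3 CPM and erythroid-like cells at 66.4 CPM, whose intervals overlapped. Mesenchyme-like cells followed at 39.7 CPM, and neurons left unnamed had 40.2 and 39.3 CPM in the WT libraries. Choroid plexus-like cells had 10.4 CPM, hem progenitor-like cells 7.24, pallial-like neurons 6.69, intermediate progenitor-like cells 5.04 and pallial progenitor-like cells 3.69. From choroid plexus-like cells down, the intervals of neighbours in this order overlapped in at least 1 library. Unlike Cxcr4, Ackr3 was low in pallial-like neurons and in progenitors, and it was present in the ligand-producing mesenchyme. Its closest genes were Inka1 (0.847), an inhibitor of the kinase Pak4, Htatip2 (0.839) and Ggt5 (0.821), a gamma-glutamyltransferase.

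Ackr3 was the member that differed most between genotypes in Cajal-Retzius-like neurons. It had 10.4 CPM (8.2 to 13.0) in Gmnc-/-, 67.9 CPM (60.7 to 75.7) in WT library 1 and 66.8 CPM (59.7 to 74.5) in WT library 2. That is 78 UMIs in the Gmnc-/- class against 323 and 324 in the WT classes, a level 6.49-fold lower in Gmnc-/- (5.12 to 8.32). A UMI was found in 7.54% of the Gmnc-/- cells, 34.8% of the cells of WT library 1 and 37.1% of those of WT library 2. The median depths were 6416, 7595 and 8703 UMIs, and after thinning each cell to 2000 UMIs the shares were 1.40%, 12.1% and 12.7%. The Gmnc-/- neurons lay far below both WT libraries, and they lay near the hem progenitor-like cells of their own library (12.2 CPM).

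Of 6817 well-measured genes in this class, 8.41% were at least 2-fold lower and 5.1% at least 2-fold higher in Gmnc-/-, and Ackr3 was among the lower ones. The 6 markers of other pallial neurons, all detected in each library, summed to 935 CPM in Gmnc-/- against 475 and 488 CPM in WT, and their part in the receptor differences was not tested. A total of 109 genes were as low as Ackr3 or lower on the log2(CPM + 1) scale. Erythroid-like cells also express Ackr3, and haemoglobin made up 0.390% of the UMIs of Gmnc-/- Cajal-Retzius-like neurons against 0.0373% and 0.0597% in the WT ones. At the erythroid ratio of Ackr3 to haemoglobin this corresponds to 0.182 CPM in Gmnc-/- and to 0.0338 and 0.0664 CPM in the WT libraries. Mesenchyme and meninges markers summed to 10.1 CPM in Gmnc-/- and 7.15 and 15.9 CPM in WT, with 8, 7 and 8 of 9 detected.

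Cxcr4 was lower too, by much less. Cajal-Retzius-like neurons had 51.6 CPM (46.6 to 57.0) in Gmnc-/-, 79.9 CPM (72.0 to 88.3) in WT library 1 and 66.6 CPM (59.5 to 74.3) in WT library 2, a ratio of 0.705 (0.622 to 0.8). The share of cells with a UMI was 27.7% in Gmnc-/-, 37.9% in WT library 1 and 37.3% in WT library 2, and 8.84%, 13.4% and 10.9% after thinning. The Gmnc-/- value lay below both WT libraries, within 2-fold of them. Scaling by the trimmed mean of M values shifted all genes of this class by 0.16 on the log2 scale. With it the Cxcr4 ratio was 0.786 and the Ackr3 ratio 0.172. Over all neurons 5.24% of well-measured genes were at least 2-fold lower in Gmnc-/- and 4.1% at least 2-fold higher. There Ackr3 had 11.6 CPM in Gmnc-/- against 46.1 and 43.6 CPM in WT, and Cxcr4 41.0 against 58.1 and 59.1 CPM.

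**Figure D2:**
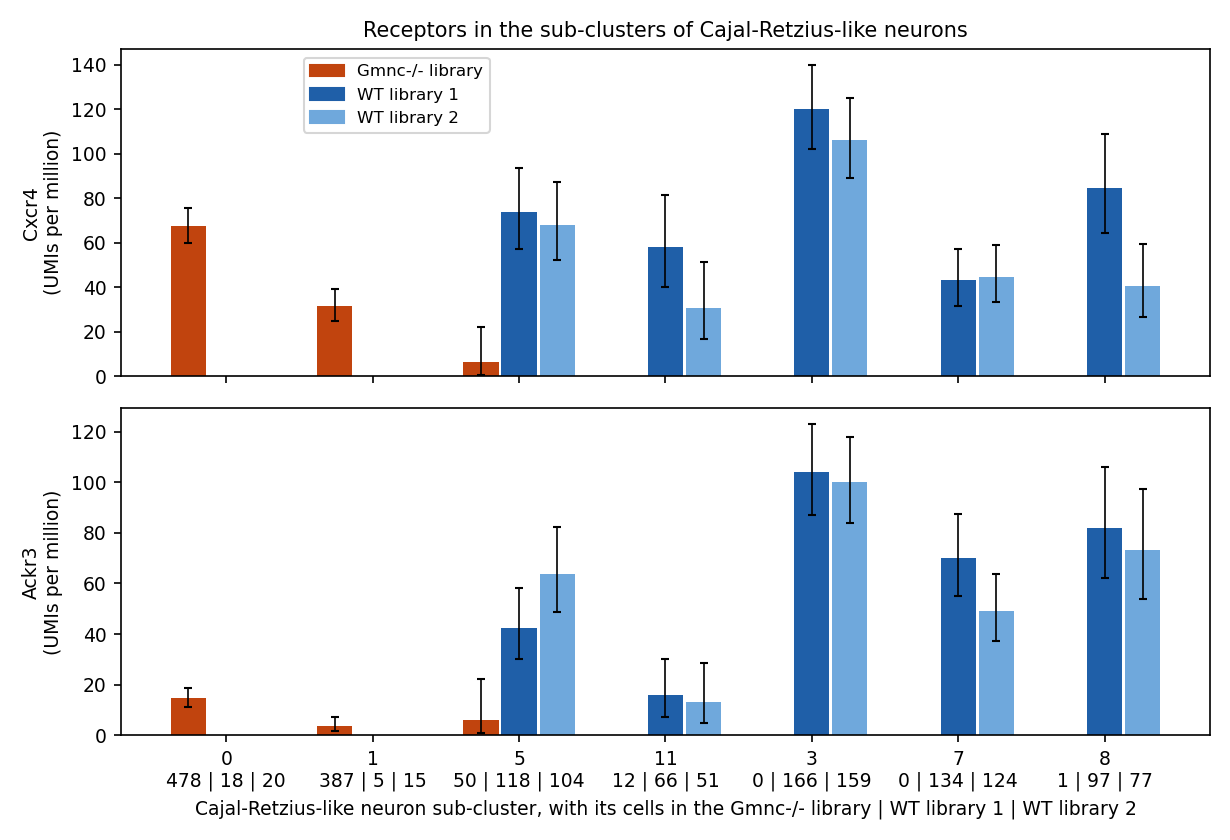
Cxcr4 (top) and Ackr3 (bottom) levels (y axis, CPM) in the 7 sub-clusters of Cajal-Retzius-like neurons (x axis, with cells per library), as bars with 95% Poisson intervals, drawn where a library had at least 50 cells. The Gmnc-/- bars for Ackr3 stay below 15, while WT sub-cluster 3 reached 104 and 100.

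The genotypes filled different sub-clusters of this class, so the comparison was repeated within them. Gmnc-/- cells lay mainly in sub-clusters 0 (478 cells) and 1 (387 cells). Over the non-neuron clusters these were led by Calb2 and Stmn2, and by Nhlh2 and Nhlh1, in that order. Over the other neuron sub-clusters both were led by Nme2, Rnasek, Atp6v0c and Fam89b. Against these, the marker set highest in both was that of erythroid cells (mean log2 fold 2.62 and 2.09). Nme2, Rnasek and Atp6v0c were also among the 10 leading genes of sub-clusters 6, 10 and 13, mostly or only Gmnc-/- cells. The part of these genes in the grouping was not tested. WT cells lay mainly in sub-clusters 3, 5, 7, 8 and 11, most of which were led over the non-neuron clusters by Trp73, Lhx1, Ccno or Mcidas. Ackr3 had 14.6 CPM in sub-cluster 0 and 3.88 CPM in sub-cluster 1 of Gmnc-/-. In WT it had 104 and 100 CPM in sub-cluster 3, 69.9 and 49.2 in sub-cluster 7, and 81.8 and 73.1 in sub-cluster 8. Only sub-cluster 11, a WT group with cell cycle and Ccno-type genes, came near the Gmnc-/- level with 15.8 and 13.2 CPM.

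Sub-cluster 5, led by Lhx1 and Barhl2, was the one with at least 50 cells from every library. Ackr3 there had 6.15 CPM (0.744 to 22.2, 2 UMIs in 50 cells) in Gmnc-/-, 42.4 CPM (30.0 to 58.3) in WT library 1 and 63.8 CPM (48.6 to 82.3) in WT library 2. Cxcr4 there had 6.15 CPM (0.744 to 22.2) in Gmnc-/-, 73.7 CPM (57.0 to 93.8) and 68.1 CPM (52.4 to 87.2) in WT. Both receptors were therefore lower in the 50 Gmnc-/- cells of this shared group as well, from 2 UMIs of each. Whether these cells are of the same type as the WT cells there was not tested. The few WT cells of sub-cluster 0 (18 and 20) had 39.2 CPM (15.8 to 80.7) and 71.9 CPM (38.3 to 123) of Ackr3, against 14.6 CPM (11.3 to 18.6) in the Gmnc-/- cells of that group. Their Cxcr4 levels were 84.0 CPM (47 to 139) and 99.5 CPM (59 to 157), from 15 and 18 UMIs, against 67.4 CPM (60.0 to 75.4) in Gmnc-/-. The Cxcr4 ratio there was 0.734 (0.511 to 1.09), so a lower level in sub-cluster 0 was not resolved.

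Sub-cluster 9, which held 90 and 78 WT cells and no Gmnc-/- cell, carried Ccno, Mcidas and Trp73 but could not be named by its markers. It was rich in both receptors, with 109 and 137 CPM of Cxcr4 and 78.1 and 86.4 CPM of Ackr3. Sub-cluster 3 held the highest Ackr3 levels among clusters of at least 50 WT cells. Cxcl12 itself was highest among WT Cajal-Retzius-like sub-clusters of at least 50 cells in sub-cluster 3, with 9.29 and 9.56 CPM, and in Gmnc-/- in sub-cluster 0, with 10.2 CPM.

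**Figure D3:**
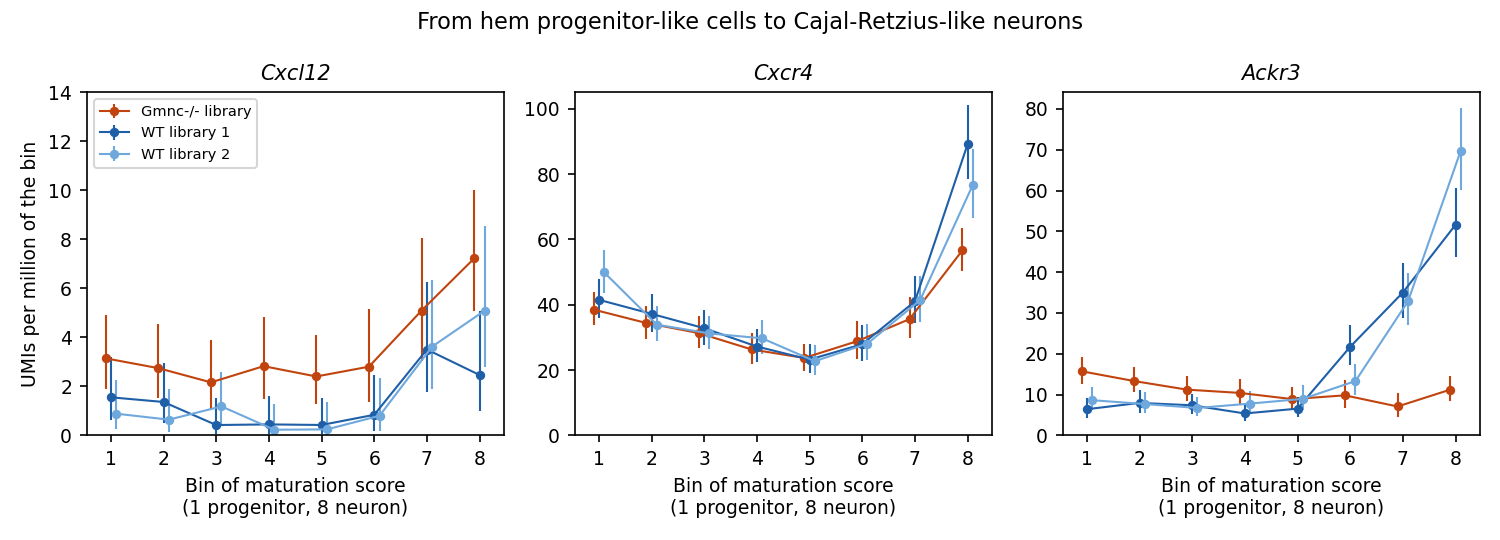
Levels of Cxcl12, Cxcr4 and Ackr3 (y axis, CPM) over 8 bins of a maturation score (x axis, 1 most progenitor-like, 8 most neuronal), 1 line per library with 95% Poisson intervals. In the last bin Ackr3 was 11.2 in Gmnc-/- against 51.6 and 69.8 in WT.

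To place the receptors along the path from hem progenitors to neurons, the cells of the hem, intermediate progenitor and Cajal-Retzius classes, with cluster 11 (led by Nhlh1 and Neurod1), were ranked by their neuron markers minus their progenitor markers. The bins were cut into 8 equal parts of the WT cells, and 3370 Gmnc-/-, 2756 and 2468 WT cells were scored. In WT, Ackr3 stayed between 5.36 and 8.94 CPM over bins 1 to 5 and then climbed. Bin 6 had 9.80 CPM in Gmnc-/- against 21.7 and 13.3 CPM in WT, and bin 7 had 7.07 CPM in Gmnc-/- against 35.0 and 32.9 CPM in WT. In bin 8 Ackr3 had 11.2 CPM in Gmnc-/- and 51.6 and 69.8 CPM in WT, a ratio of 0.185 (0.137 to 0.247).

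The Gmnc-/- line showed no such climb: it lay between 7.07 and 15.7 CPM over the 8 bins and began above WT. In bin 1, among the least mature hem progenitors, Ackr3 had 15.7 CPM in Gmnc-/- and 6.40 and 8.61 CPM in WT, a ratio of 2.09 (1.52 to 2.90). In bin 5 the ratio was 1.15 (0.784 to 1.7), and from bin 6 on Gmnc-/- lay below both WT libraries. Cxcr4 was U-shaped in both: it was at 38.5 CPM in Gmnc-/- against 41.5 and 49.9 CPM in WT in bin 1, at 23.7 against 23.2 and 22.7 CPM in bin 5, and at 56.6 against 89.1 and 76.7 CPM in bin 8. Its ratio lay between 0.843 and 1.03 in bins 1 to 7 and was 0.683 (0.586 to 0.792) in bin 8. Cxcl12 was higher in Gmnc-/- than in the WT libraries in each bin, with 2.16 to 7.22 CPM against 0.229 to 5.09 CPM. In bins 3 and 7 the interval of its ratio included 1.

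**Figure D4:**
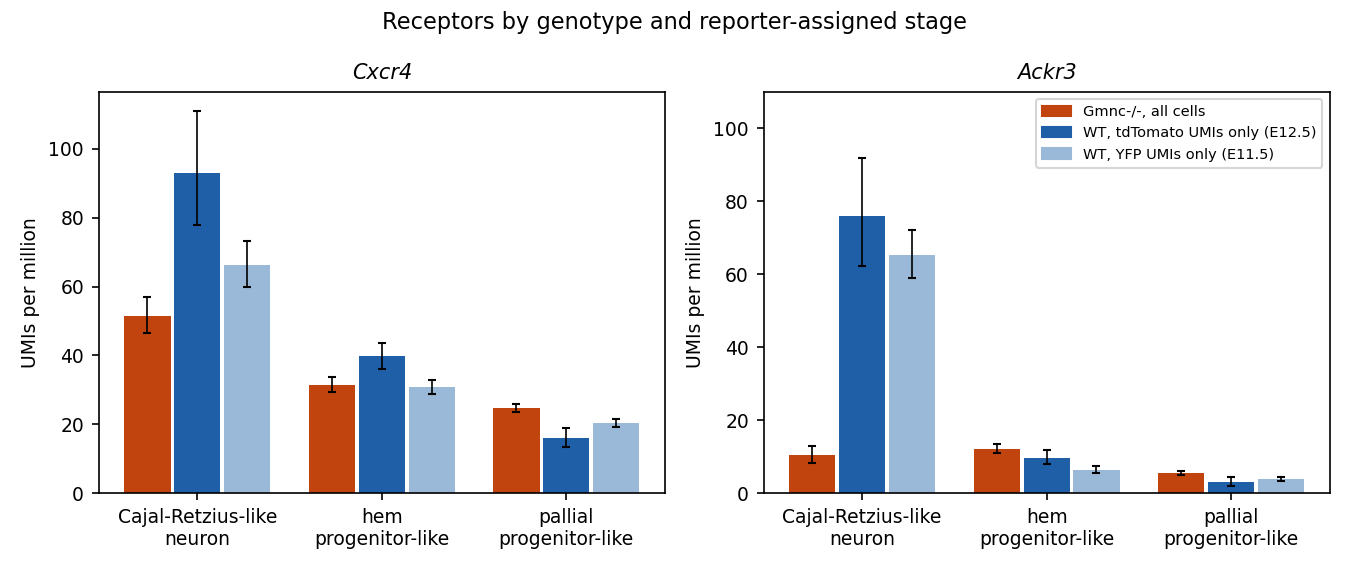
Cxcr4 (left) and Ackr3 (right) levels (y axis, CPM) in 3 cell classes (x axis), for all Gmnc-/- cells and for WT cells with UMIs of only tdTomato or only YFP, as bars with 95% Poisson intervals. Ackr3 in Cajal-Retzius-like neurons was 10.4 in Gmnc-/- against 75.9 and 65.4 in the 2 WT sets. In pallial progenitor-like cells, named as outside the hem, the tdTomato set cannot be taken as matched in stage.

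Age was compared through the reporters, since the Gmnc-/- embryos were all E12.5 and the WT suspension was mixed. Of the WT Cajal-Retzius-like neurons, 159 had only tdTomato UMIs, which mark E12.5 embryos, and 723 had only YFP UMIs, which mark E11.5 embryos. Erythroid-like cells, outside the Wnt3aCre lineage, had a tdTomato UMI in 3.11% and 5.78% of cells, against 16.6% and 15.5% of Cajal-Retzius-like neurons, so tdTomato UMIs also occurred outside that lineage. Ackr3 had 10.4 CPM in Gmnc-/- neurons, 75.9 CPM in the tdTomato neurons and 65.4 CPM in the YFP neurons. Against the tdTomato neurons, which match the Gmnc-/- embryos in stage, the ratio was 0.137 (0.101 to 0.185). Against the YFP neurons it was 0.159 (0.123 to 0.203). Whether age had a part in the difference was not tested beyond these values.

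Cxcr4 in Cajal-Retzius-like neurons had 51.6 CPM in Gmnc-/-, 93.1 CPM in the tdTomato set and 66.4 CPM in the YFP set. The ratio to the tdTomato set was 0.554 (0.453 to 0.682), further from 1 than the ratio to all WT cells. In hem progenitor-like cells Cxcr4 had 31.5 CPM in Gmnc-/-, 39.8 in the tdTomato set (672 cells) and 30.9 in the YFP set (2097 cells), so the Gmnc-/- level matched the younger set and was lower than the older one, at a ratio of 0.793 (0.704 to 0.893). Ackr3 in these cells had 12.2, 9.68 and 6.38 CPM. Its ratio to the tdTomato set was 1.26 (1.01 to 1.59), against 1.69 for all WT cells. Cxcl12 in the tdTomato hem cells rested on 5 UMIs, and its ratio was 5.89 (2.41 to 18.7).

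**Figure D5:**
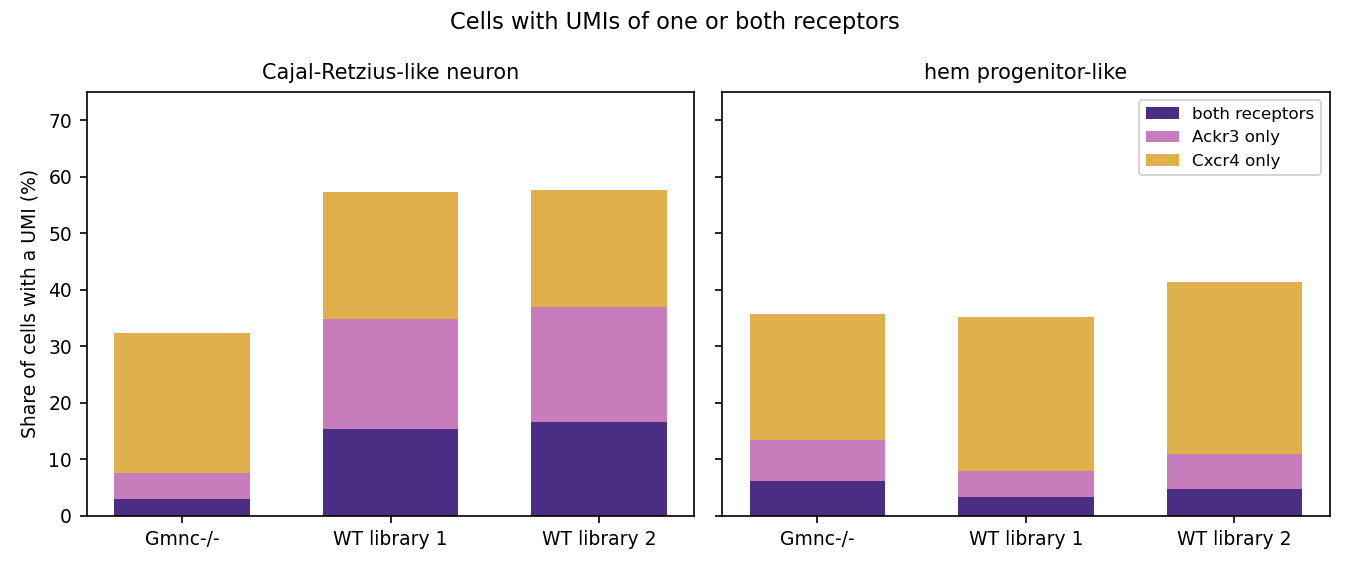
Share of cells (y axis, percent) with UMIs of both receptors, of Ackr3 only or of Cxcr4 only, stacked, in Cajal-Retzius-like neurons (left) and hem progenitor-like cells (right) of each library. Cells with both receptors were 3.02% of Gmnc-/- Cajal-Retzius-like neurons against 15.4% and 16.5% of WT ones.

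Because Ackr3 takes up the ligand that Cxcr4 senses, it matters whether 1 cell holds both. Cells with UMIs of both receptors were 3.02% (2.01 to 4.33) of Gmnc-/- Cajal-Retzius-like neurons, 15.4% (12.6 to 18.5) of those of WT library 1 and 16.5% (13.5 to 19.9) of those of WT library 2. Ackr3 without Cxcr4 was found in 4.53% of Gmnc-/- cells and in 19.4% and 20.5% of WT cells. Cxcr4 without Ackr3 was found in 24.7% of Gmnc-/- cells and in 22.5% and 20.7% of WT cells. At full depth the Gmnc-/- class thus had fewer cells with Ackr3, with or without Cxcr4. Cells with a Cxcr4 UMI were fewer too, at 27.7% against 37.9% and 37.3%. After thinning, Cxcr4 without Ackr3 was found in 8.84% of Gmnc-/- cells and in 11.8% and 9.27% of WT cells. Among the cells with Ackr3, Cxcr4 was found in 40% in Gmnc-/- and in 44.3% and 44.6% in WT. After thinning to 2000 UMIs, 0 of 928 Gmnc-/- cells, 10 of 604 and 9 of 550 WT cells held both.

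In progenitors the genotypes differed little in Cxcr4. Hem progenitor-like cells had 31.5 CPM (29.4 to 33.7) in Gmnc-/-, 32.4 CPM (30.1 to 34.8) in WT library 1 and 34.1 CPM (31.8 to 36.6) in WT library 2, a ratio of 0.947 (0.869 to 1.03). Pallial progenitor-like cells had 24.7 CPM in Gmnc-/- and 19.9 and 20.9 CPM in WT, a ratio of 1.21 (1.14 to 1.29). Without doublet removal the ratio was 1.07 (0.991 to 1.16), and against WT cells with only tdTomato UMIs it was 1.55 (1.3 to 1.85). This class was named as lying outside the hem, and 8.42% and 9.2% of its WT cells had a tdTomato UMI. The tdTomato set here thus cannot be taken as matched in stage. Of well-measured genes in the pallial class 1.17% were at least 2-fold lower and 3.8% at least 2-fold higher in Gmnc-/-, and Cxcr4 was in neither group. Intermediate progenitor-like cells had 18.7 CPM in Gmnc-/-, 26.2 CPM in WT library 1 and 21.6 CPM in WT library 2. The ratio there, 0.782 (0.503 to 1.20), was not separable from 1 at 150, 140 and 150 cells, and 3.17% of well-measured genes there were at least 2-fold lower and 3.39% at least 2-fold higher.

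In hem and pallial progenitor-like cells Ackr3 ran the other way from the way it ran in Cajal-Retzius-like neurons. Hem progenitor-like cells had 12.2 CPM (10.9 to 13.6) in Gmnc-/-, 6.59 CPM (5.57 to 7.74) in WT library 1 and 7.89 CPM (6.77 to 9.14) in WT library 2, a ratio of 1.69 (1.44 to 1.98). Pallial progenitor-like cells had 5.49 CPM in Gmnc-/- and 3.8 and 3.58 CPM in WT, a ratio of 1.49 (1.29 to 1.72). This pallial ratio was 1.26 (1 to 1.59) at clustering resolution 2 and 1.72 (1.15 to 2.55) after thinning. Against WT pallial cells with only tdTomato UMIs it was 1.8 (1.21 to 2.75). In the hem cells the ratio to the tdTomato set was 1.26 (1.01 to 1.59). Both classes lay above the WT libraries by less than 2-fold, and neither reached the 20 CPM of a well-measured gene. Choroid plexus markers summed to 1116 CPM in Gmnc-/- hem cells and 680 and 623 CPM in the WT ones, and erythroid markers to 2057, 266 and 229 CPM, with 8 of 8 of each list detected. Their part in the Ackr3 difference was not tested. Intermediate progenitor-like cells had 4.51, 4.02 and 6.06 CPM from 7, 8 and 14 UMIs, a ratio of 0.895 (0.318 to 2.14) that was not separable from 1. Choroid plexus-like cells had 8.73, 10.3 and 10.5 CPM.

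Pallial-like neurons could not be compared as a class, since the genotypes lay in different sub-clusters. Among the 10 genes that led sub-cluster 6 over the non-neuron clusters were the pallial neuron markers Neurod6 and Neurod2. The 10 that led it over the other neuron sub-clusters held no pallial neuron marker. The Gmnc-/- cells lay in sub-clusters 6 (257 cells) and 10 (143 cells), where Ackr3 had 15.1 and 13.7 CPM and Cxcr4 39.5 and 19.1 CPM. The WT cells lay in sub-clusters 4 (161 and 164 cells) and 12 (69 and 53 cells). Ackr3 had 4.81 and 0.539 CPM in sub-cluster 4 and 11.4 and 6.49 CPM in sub-cluster 12, and Cxcr4 had 30.7 and 48.5 CPM in sub-cluster 4 and 13.9 and 13 CPM in sub-cluster 12. Haemoglobin was 2.29% of the UMIs of the Gmnc-/- class against 0.0307% and 0.341% in WT, and 4.64% of its well-measured genes were at least 2-fold higher and 2.77% at least 2-fold lower.

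Outside the neural lineage, mesenchyme-like and erythroid-like cells held most Ackr3, and it was lower in Gmnc-/- in both. Macrophage-like cells held 5 Ackr3 UMIs in Gmnc-/- against 1 and 0 in WT, and endothelial-like cells 2 in Gmnc-/-, too few for a comparison. In mesenchyme-like cells Ackr3 had 14 CPM (9.33 to 20.3) in Gmnc-/-, 36.7 CPM (25.6 to 51.1) in WT library 1 and 42.6 CPM (31.2 to 56.9) in WT library 2, a level 2.83-fold lower in Gmnc-/- (1.83 to 4.53). A UMI was found in 24 of 169 Gmnc-/- cells (14.2%), in 24 of 69 cells of WT library 1 (34.8%) and in 28 of 66 of WT library 2 (42.4%). Of 6221 well-measured genes in this class 3.44% were at least 2-fold lower in Gmnc-/-, and 49 were as low as Ackr3 or lower. Within the 4 sub-clusters Ackr3 was at 3.75 to 23.8 CPM in Gmnc-/- and at 6.44 to 52.6 CPM in WT library 1 and 37.6 to 47.4 CPM in WT library 2. In each of them the Gmnc-/- value lay below both WT values. Sub-cluster 4 rested on 2 Gmnc-/- UMIs against 1 and 16 in WT, and its WT library 1 interval was 0.163 to 35.9 CPM. The ratio in sub-cluster 3 was 0.488, with an interval (0.213 to 1.09) that included 1. In sub-clusters 0, 1 and 4 the interval of the ratio lay below 1.

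Choroid plexus markers summed to 1004 CPM in the Gmnc-/- mesenchyme-like cells and to 377 and 70.4 CPM in the WT ones, with 7, 7 and 5 of 8 detected, and Col3a1 was at 1548 CPM against 2599 and 2414 CPM. Their part in the Ackr3 difference was not tested. Only 9 WT mesenchyme-like cells had tdTomato without YFP, with 5 Ackr3 UMIs, so the class could not be matched by stage (ratio to these cells 0.511, interval 0.195 to 1.70).

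Ackr3 in erythroid-like cells had 28.7 CPM (23.1 to 35.1) in Gmnc-/-, 58.8 CPM (50.7 to 67.8) in WT library 1 and 74.0 CPM (64.9 to 83.9) in WT library 2, a ratio of 0.432 (0.341 to 0.541). Scaling by the trimmed mean of M values shifted all genes of this class by -0.54 on the log2 scale, and with it the ratio was 0.296. Against the 11 WT cells with only tdTomato UMIs, which held 8 Ackr3 UMIs, the ratio was 0.842 (0.41 to 2.01). Erythroid-like cells lie outside the Wnt3aCre lineage, so tdTomato UMIs in them cannot be taken to mark stage. The class could thus not be matched by stage. Of 2665 well-measured genes there, 6.19% were at least 2-fold lower and 23.3% at least 2-fold higher in Gmnc-/-. Cxcr4, by contrast, had 21 UMIs (6.47 CPM) in the Gmnc-/- erythroid-like cells against 0 and 1 UMI in the WT ones, a share of 8.76% of cells against 0% and 0.578%. The count of 0 in the 193 cells of WT library 1 allows up to 1.89% of cells with a UMI at this depth (exact binomial limit), which is no limit on cells expressing Cxcr4. The neural progenitor markers summed there to 612 CPM in Gmnc-/- against 89.5 and 118 CPM in WT, with 7 of 7 detected in each library. Their part in the Cxcr4 count was not tested.

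Few other chemokine genes were measurable. Of 52 other chemokines and chemokine receptors, 16 had a UMI in Cajal-Retzius-like neurons and 1 was well measured there, Ccl25, at 26.1 CPM in Gmnc-/- and 20.8 and 25.6 CPM in WT. In mesenchyme-like cells Ccl25, the well-measured one of 14 with a UMI, had 29.1 CPM in Gmnc-/- and 8.39 and 16.7 CPM in WT. In erythroid-like cells the atypical receptor Ackr1, the Duffy antigen of red cells, was lower alongside Ackr3: it had 14.8 CPM in Gmnc-/- and 34.7 and 41.9 CPM in WT. The arrestin gene Arrb1 was lower there too, at 15.7 against 39.7 and 45.9 CPM. The alternative ligand genes Mif (571 against 59.1 and 58.2 CPM) and Hmgb1 (638 against 226 and 200 CPM), and the G protein subunit gene Gng2 (32.1 against 3.13 and 4.62 CPM), were higher. In this class 23.3% of all well-measured genes were at least 2-fold higher and 6.19% at least 2-fold lower. Neural progenitor markers there summed to 612 CPM in Gmnc-/- against 89.5 and 118 CPM in WT. Their part in these values was not tested.

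Counts of pathway genes in Cajal-Retzius-like neurons stand beside the 8.41% of all well-measured genes that were at least 2-fold lower there and the 5.1% that were at least 2-fold higher. Of 11 genes for the processing and matrix binding of Cxcl12, 3 were well measured in Cajal-Retzius-like neurons and 1 was past 2-fold. Gpc1, a membrane heparan sulphate proteoglycan, had 25.7 CPM in Gmnc-/- and 68.3 and 57.5 CPM in WT. The median log2 ratio of the 3 was 0.07, beside -0.16 over all well-measured genes. In mesenchyme-like cells 7 were well measured and 0 past 2-fold, with a median of -0.48 beside -0.07. Of all well-measured genes there, 3.44% were at least 2-fold lower and 4.4% at least 2-fold higher. Among them Sdc1, a syndecan, had 67.7 CPM in Gmnc-/- against 108 and 107 CPM in WT. Vcan, the matrix proteoglycan versican, had 93.6 CPM in Gmnc-/- pallial progenitor-like cells and 36.2 and 38.5 CPM in WT. In the choroid plexus class Gnb2, a G protein subunit gene, had 275 CPM in Gmnc-/- and 593 and 604 CPM in WT. There Mmp2, a protease that can cleave Cxcl12, had 26.3 CPM in Gmnc-/- and a mean of 10.8 CPM in the WT libraries, beside 3.22% of well-measured genes at least 2-fold lower and 4.69% at least 2-fold higher there.

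Of the 5 other ligands of these receptors listed in all libraries, Mif and Hmgb1 were well measured in every class described, and in Cajal-Retzius-like neurons Mif had 830 CPM in Gmnc-/- against 493 and 465 CPM in WT. Neither was past 2-fold in neurons or progenitors. Downstream, 15 of 21 G protein and arrestin genes were well measured in Cajal-Retzius-like neurons and 1 was past 2-fold, a share no larger than that over all genes: Rgs2, which speeds the shutting off of G proteins, had 139 CPM in Gmnc-/- and 34.5 and 33.2 CPM in WT. The main inhibitory G protein subunit Gnai2 had 304 CPM in Gmnc-/- and 325 and 328 CPM in WT, and the arrestin gene Arrb2 had 23.4, 26.7 and 24.1 CPM. Of 19 migration effectors 15 were well measured and 1 was past 2-fold: Cdk5r1, the activator of the kinase Cdk5, had 221 CPM in Gmnc-/- and 461 and 449 CPM in WT. The medians of these lists, -0.10 and -0.02, lay close to the -0.16 of all genes.

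In hem progenitor-like cells the same lists held 2 genes past 2-fold, beside 1.07% of 6838 well-measured genes at least 2-fold lower and 4.11% at least 2-fold higher. Rgs16, a further G protein regulator, had 36.9 CPM in Gmnc-/- and 16.0 and 15.0 CPM in WT, and Pak3, a kinase acting below Rac, had 57.0 CPM in Gmnc-/- and 23.0 and 26.3 CPM in WT. In intermediate progenitor-like cells Rgs16 ran the other way, with 116 CPM in Gmnc-/- and 291 and 272 CPM in WT, and Rgs2 had 52.2, 23.6 and 24.7 CPM. This class differed in make-up: cluster 24 held 7 of 150 Gmnc-/- cells against 42 of 140 and 43 of 150 WT cells. Its hem markers summed to 530 CPM in Gmnc-/- against 1188 and 1027 CPM in WT (8, 7 and 8 of 8 detected) and its neuron markers to 2490 against 4291 and 3841 CPM (10 of 10 in each). Their part in these values was not tested. In mesenchyme-like cells Gnb2 had 306 CPM in Gmnc-/- against 637 and 602 CPM, Akt1 80.7 CPM against 171 and 164 CPM, and Gnao1 27.1 CPM against a WT mean of 12.7 CPM. Of well-measured genes there, 3.44% were at least 2-fold lower and 4.4% at least 2-fold higher.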

How the data were processed

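Cell barcodes were counted by the authors with Cell Ranger on mm10: 6.0.0 for Gmnc-/- and 3.1.0 for WT per the file headers, 3.1.0 throughout per the submitters' processing notes. The deposited matrices hold raw counts of UMIs per gene and barcode, and only genes listed in all 3 libraries were used. The Gmnc-/- matrix lists 32285 features and each WT matrix 28001. Gene annotation thus cannot be told apart from genotype, for the shared genes too. Its part in the differences of single genes was not tested. Cells under 1000 genes or 2000 UMIs, or over 10% mitochondrial reads, were dropped. Per library, the cells most like simulated doublets were removed at 0.8% per 1000 cells. Variable genes (2000, without the members and 5 pathway lists) were scaled within genotype, reduced to 40 components and clustered (leidenalg 0.10.2, resolution 1). Neurons and non-neural cells were sub-clustered, and clusters were named from 18 marker sets by rules settled after clusters were seen. Clusters below those rules stayed unnamed. UMIs were summed per class and library, with exact Poisson (levels), Clopper-Pearson (shares) and conditional binomial (ratios) 95% intervals. WT ratios use the mean of both libraries, counted as 1 sample. Pathway genes were named if well measured and past 2-fold, up to 4 per list and direction, and 3 alike genes per member, with Gnai2, Arrb2, Mif, Ccl25 and Sdc1 in further classes named after their values were seen. Members and lists were chosen with earlier results of these data known. Folds were tested on simulated data. edgeR 4.0.16 supplied alternative scalings. Alternatives in cell filters, doublets, resolution, stage and depth were tried.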

Additional observations from a re-analysis of the deposited data

Results flagged for a closer look

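For each of the 3 genes the Gmnc-/- value lay above both WT libraries in some cell classes and below both in others, which drew attention to them. The differences between classes were not tested. The Gmnc-/- over WT ratio of Ackr3 was 0.154 in Cajal-Retzius-like neurons, 0.354 in mesenchyme-like cells and 0.432 in erythroid-like cells, but 1.69 in hem progenitor-like cells, 1.49 in pallial progenitor-like cells and 2.17 in pallial-like neurons, a class whose sub-clusters the genotypes did not share. The ratio of Cxcr4 was 0.705 in Cajal-Retzius-like neurons, 1.21 in pallial progenitor-like cells (1.07 without doublet removal) and 42.0 in erythroid-like cells (6.71 to 1724), the last from 21 UMIs against 0 and 1. The ratio of Cxcl12 was 0.872 in mesenchyme-like cells, 3.56 in hem progenitor-like cells and 1.67 in Cajal-Retzius-like neurons. In mesenchyme-like cells a lower level was not resolved, so opposite directions were not established for Cxcl12.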

How the results depend on the processing

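No paired analysis was possible because the genotypes share only 1 replicate number and no test was run. Over 20 results and 186 alternative values, 156 stayed within the interval of the reported ratio or within 1.5 times the reported count, 29 did not and 1 reversed. Shared barcodes, score margins, the all-neuron class and each alternative for Ackr3 in mesenchyme-like, pallial progenitor-like and erythroid-like cells, Cxcr4 in pallial progenitor-like cells and Cxcl12 in Cajal-Retzius-like neurons were chosen after seeing the data. The cause of a shift was not tested unless the setting itself gives it. With WT cells of the E12.5 reporter only, taken as the mean of both libraries, the ratio was 6.29 for Cxcl12 and 0.793 for Cxcr4 in hem progenitor-like cells, 1.26 for Ackr3 there, and 0.558 for Cxcr4 in Cajal-Retzius-like neurons. With cells thinned to 2000 UMIs it was 1.98 for Cxcl12 in hem progenitor-like cells, 0 for Cxcl12 in choroid plexus-like cells, 0.362 for Cxcr4 in intermediate progenitor-like cells, 0.0989 for Ackr3 in Cajal-Retzius-like neurons and 0.211 for Ackr3 in mesenchyme-like cells. At resolution 0.5, Cxcr4 in hem progenitor-like cells had 1.05. Requiring a Cajal-Retzius score at least 1 above the pallial score left 51 Gmnc-/- cells (515 and 464 in WT), with ratios of 0.0802 for Cxcr4, 0.0813 for Ackr3 and 0, reversed, for Cxcl12. The interval of the Cxcl12 ratio was 0 to 3.1 and included 1. Of the 51 cells, 50 were those of sub-cluster 5, so these ratios largely repeat its values. Over all neurons Ackr3 had 0.258. In erythroid-like cells Ackr3 had 0.74 with the E12.5 reporter, which cannot be taken to mark stage in these cells. In pallial progenitor-like cells Cxcr4 had 1.07 without doublet removal and 1.55 with the reporter, which cannot be taken to mark stage there either. Without a filter on low counts, 2154 genes were past 2-fold in mesenchyme-like cells against 488 with it, 805 against 354 in hem progenitor-like cells and 2169 against 921 in Cajal-Retzius-like neurons. The pathway genes past 2-fold in mesenchyme-like cells were 4 as reported, 9 without the filter, 2 with a pseudocount of 5, and 2 to 4 without either WT library, 2 without WT library 1. Without either WT library Ackr3 in Cajal-Retzius-like neurons had 0.153 to 0.155, Cxcr4 0.646 to 0.775, and Cxcl12 in choroid plexus-like cells 1.11 to 2.61. Depth limits Cxcl12 outside the mesenchyme and both receptors in intermediate progenitor-like cells.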

Other observations

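The Gmnc-/- library held 2 named progenitor classes with no WT cells. The 112 cells led by Barhl2 and Olig3, genes of the diencephalon and its border with the hem, had 49.8 CPM of Cxcr4, 11.1 CPM of Ackr3 and 3.28 CPM of Cxcl12, the last from 5 UMIs. Cxcr4 was thus above its level in the Gmnc-/- hem progenitor-like cells (31.5 CPM), and 40.2% of these cells (31.0 to 49.9) had a UMI. The 256 cells led by Fgf8 and Fgf17, signals of the rostral midline, had 11.6 CPM of Cxcr4, 8.87 CPM of Ackr3 and 1.16 CPM of Cxcl12. No WT cells were there to set beside either group.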
